A study of Sus scrofa with 2 samples.

Results

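The granulosa cells described here carried high counts of TNFAIP6 and THBS1 together. They were chosen by their measured counts of these genes: at least 25 unique molecular identifiers (UMIs, the tags by which single mRNA molecules are counted) of TNFAIP6 and at least 10 of THBS1, in a cell barcode with 2000 to 5000 detected genes and less than 7% of its UMIs from 13 mitochondrial genes. In AF75, one of the follicles, 536 of the 9362 cells within these limits were chosen, and in AF76, the other, 0 of 7843. The chosen cells thus made up 536 of 17205 cells within the limits, out of 29837 deposited barcodes. They were compared with the 6458 cells of AF75 inside the same limits that had fewer than 5 UMIs of TNFAIP6 and fewer than 3 of THBS1, called comparison cells below; 2368 cells of AF75 lay in between.

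Single-cell transcriptomes were measured in the somatic cells of 2 antral follicles over 7 mm in diameter, both from 1 Landrace × Yorkshire pig of 210 days that had been given pregnant mare serum gonadotropin. Each follicle was punctured and its fluid flushed out, and cumulus-oocyte complexes were taken apart with hyaluronidase and pipetting, so that cumulus and mural cells of a follicle were in the same library. The library of AF75 held 125409747 UMIs in 14289 barcodes and that of AF76 held 127414267 in 15548, and 56 barcodes occurred in both. With 1 library per follicle there is no replicate, and every interval below covers counting error only.

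In an antral follicle the mural granulosa cells line the wall and the cumulus granulosa cells surround the oocyte. After the ovulatory surge of luteinizing hormone the cumulus expands: its cells make hyaluronan and link it into an elastic matrix through versican and through the protein that TNFAIP6 encodes, which moves heavy chains of inter-alpha-inhibitor onto hyaluronan. EGF-like ligands from the mural cells, prostaglandin E2 and factors from the oocyte take part in starting this program. Thrombospondin-1, the product of THBS1, is a secreted matrix glycoprotein that binds to cell surfaces and proteases and restrains the growth of blood vessels.

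The values that chose the cells are given as a description. The chosen cells of AF75 held 25 to 404 UMIs of TNFAIP6 per cell with a median of 71.0, and 10 to 223 UMIs of THBS1 with a median of 29.0. Summed over cells and divided by all their UMIs, this gave a level of 7113 CPM (counts per 1000000 UMIs) of TNFAIP6 against 83.1 in the comparison cells, and 3089 of THBS1 against 27.3. With 6.06% of the UMIs of AF75 within the limits, the chosen cells held 46.7% of those of TNFAIP6 and 51.6% of those of THBS1. Both messages were thus spread over many cells outside the group as well.

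The share of chosen cells was 5.73% in AF75, with an exact Clopper-Pearson 95% interval of 5.26% to 6.22%. In AF76 it was 0, which allows up to 0.0383%. Neither gene was missing from AF76: 295 of its cells reached the threshold for TNFAIP6 and 159 that for THBS1, but the former held at most 7 UMIs of THBS1 and the latter at most 12 of TNFAIP6. In AF75, 1098 cells reached the threshold for TNFAIP6 and 1043 that for THBS1. The genes met in single cells of AF75 and seldom did in AF76, also at lower thresholds. At 15 UMIs of TNFAIP6 and 6 of THBS1 the follicles had 695 cells and 1 cell, and at 5 and 3 they had 977 and 17. A difference between the follicles cannot be told apart from one between their libraries.

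The chosen and the comparison cells of AF75 were sequenced to a like depth. The chosen cells had a median of 11556 UMIs and 3033 genes and the comparison cells 11294 UMIs and 3186 genes. Thinned to 5000 UMIs a cell, the medians were 1878 and 1982 genes. The mitochondrial share was 1.91% in the chosen and 2.80% in the comparison cells. A limit of 10% on this share moved the log2 ratios of 31 genes by -0.02 to 0.02. These were TNFAIP6, THBS1, the markers and the genes of largest or smallest ratio named below. A library size without mitochondrial and ribosomal protein genes moved these log2 ratios by -0.02 to -0.01. Neither step made the groups alike in this share, so its part in the results was not tested.

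The label of cumulus-like cells comes with 4 further markers, SHAS2, ARPP21, ALPK2 and PTGS2. The thresholds did not use them, but they were picked with earlier results of these data known, so their levels describe the cells and are no independent check of the label. SHAS2, the gene list's name for the pig hyaluronan synthase 2 that makes the backbone of the expanded matrix (chr4:17583154-17613524), stood at 455 CPM in the chosen cells (95% interval 439 to 471) and 21.3 in the comparison cells, a ratio of 21.4 (20.1 to 22.7). ARPP21, which encodes a phosphoprotein regulated by cyclic AMP (chr13:20955414-21088424), was at 349 against 7.99 CPM, a ratio of 43.7 (40 to 47.9). ALPK2, an alpha-kinase gene (chr1:162175241-162308074), was at 146 against 4.67 CPM, a ratio of 31.2 (27.6 to 35.3). PTGS2, the inducible cyclooxygenase that makes the precursor of prostaglandin E2 (chr9:127850164-127858866), was at 76.6 against 1.65 CPM, a ratio of 46.3 (38.0 to 56.8). Against all other cells within the limits of AF75, which include those in between, the log2 ratios were 3.01, 3.41, 3.08 and 4.20, in place of 4.42, 5.45, 4.96 and 5.53. All 4 markers were higher in the chosen cells of AF75 either way, and in the comparison cells of AF76 they stood between 0.183 CPM for PTGS2 and 2.23 for SHAS2.

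The markers were spread unevenly among the chosen cells. SHAS2 had a UMI in 85.6% of them and in 11% of the comparison cells, and ARPP21 in 81.0% and 5.22%. ALPK2 had one in 37.9% and 3.1%, and PTGS2 in 19.0% and 1.5%. At 5000 UMIs a cell the shares in chosen and comparison cells were 72.9% and 6.66% for SHAS2, 64.9% and 3.1% for ARPP21, 27.1% and 1.61% for ALPK2 and 12.5% and 0.807% for PTGS2. SHAS2 and ARPP21 thus marked most chosen cells, ALPK2 and PTGS2 a minority. The tenth of the chosen cells richest in PTGS2, 54 cells, held 86.8% of its UMIs, against 34.8% for SHAS2 in its own richest 54 cells, and up to 68 UMIs of PTGS2 lay in 1 cell.

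Of the hyaluronan matrix list, 7 of 17 genes passed the minimum of a mean of 20 CPM over both groups with TNFAIP6 left out, and 3 of these were 2-fold or more higher in the chosen cells: SHAS2, VCAN and SDC1. Background to this and all later counts is that 282 of 5390 genes compared, 5.23%, were 2-fold or more higher in the chosen than in the comparison cells, and 406, 7.53%, 2-fold or more lower, TNFAIP6 and THBS1 left out. A gene that is high only in the chosen cells passes the minimum because it is high there, so these counts support nothing by themselves. VCAN, which encodes versican, was at 7949 CPM in the chosen and 935 in the comparison cells, a ratio of 8.5, and SDC1, a cell-surface proteoglycan, at 2095 and 926. CD44, the hyaluronan receptor, was the 1 member that was 2-fold or more lower, at 259 against 549.5 CPM. SDC4, another cell-surface proteoglycan and the most abundant of the list in the comparison cells, was at 1666 and 2717 CPM, so the members did not share a direction.

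The other partners of the expanded matrix named here were near 0 in the chosen cells, apart from HAPLN1. PTX3, the pentraxin that helps to fasten heavy chains in the matrix, was at 1.93 CPM in the chosen cells and 7.21 in the comparison cells, a ratio of 0.268 (0.142 to 0.462). The heavy chain genes and AMBP, which are made in the liver and reach the follicle with the serum, together with HAPLN3 gave at most 0.445 CPM. HAPLN1, a link protein gene below the minimum, was at 18.5 against 4.81 CPM. So the pooled levels of the 4 markers and VCAN were higher in the chosen cells, with a UMI of ALPK2 in 37.9% and of PTGS2 in 19.0% of them, but PTX3 stood in the opposite direction, and the cells are called here by the way they were chosen. The median log2 ratio of the 7 genes was 0.35, against -0.10 over all 5390 genes. Divided by that median ratio of all genes, the ratios gave 331 genes 2-fold or more higher and 319 lower, so that the surplus of lower genes was not kept.

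The genes with the largest ratios, by the rule given under the processing, were ARPP21, SLC10A4, RGS4, ALPK2, ENSSSCG00000024568, PRSS12, SHAS2, F3, INHBB, NAV2, APOD and CLMP, with ratios from 43.7 down to 13.1. SLC10A4, a transporter of the bile acid carrier family found in vesicles, was at 119.9 CPM in the chosen and 3.20 in the comparison cells, a ratio of 37.5 (32.4 to 43.4). RGS4, which shortens signaling of G protein-coupled receptors, was at 231 and 6.58 CPM, a ratio of 35.1 (31.8 to 39.0). F3, the gene of tissue factor that starts blood clotting, was at 171 and 9.19 CPM, a ratio of 18.6 (16.9 to 20.5), but had a UMI in only 29.7% of the chosen cells, with 82.7% of its UMIs in the 54 richest. The set thus joined regulators of signaling, a clotting factor and a secreted hormone subunit, INHBB. The most abundant of them was NAV2, a gene of neuron navigator proteins, at 683 CPM against 40.5.

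Genes with the smallest ratios were LRRC17, AREG, LIMCH1, RAB3B, GCG, ANKRD22, PTHLH, SESN1, HSPB3, EMP1, TGFB3 and CYB5A, with ratios from 0.105 to 0.196. LRRC17, a secreted protein with leucine-rich repeats, was at 25.2 CPM in the chosen and 240.0 in the comparison cells, a ratio of 0.105 (0.0898 to 0.122). GCG, the gene of preproglucagon, was at 56.2 and 355 CPM, and PTHLH, which encodes a hormone related to parathyroid hormone, at 27.7 and 164. AREG, GCG, PTHLH and TGFB3 encode ligands or hormones that cells secrete. GCG had a UMI in 23.7% of the chosen and 28.0% of the comparison cells, and in 11.4% and 17.1% at 5000 UMIs a cell, while 1 comparison cell held 633 UMIs.

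All 7 of 7 mural granulosa markers were 2-fold or more lower in the chosen cells, with a median log2 ratio of -2.35. The list was set with earlier results of these data known, so this count describes the cells and is no independent check. AREG, the EGF-like ligand amphiregulin, was at 401 CPM in the chosen and 3258 in the comparison cells, a ratio of 0.123 (0.118 to 0.128). IL33, an interleukin of the IL-1 family, was at 541 and 2694 CPM, and CYB5A, the cytochrome b5 that assists steroid and sterol enzymes, at 102 and 519.6. The summed level of the 7 genes was 1269.9 CPM in the chosen and 7378 in the comparison cells. AREG had a UMI in 71.6% of the chosen and 97.7% of the comparison cells, and in 48.0% and 94.0% at 5000 UMIs a cell, with a median of 1.00 and 19.0 UMIs. Free RNA was not removed, and its part in the AREG counts of the chosen cells was not tested.

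Much of the mural signal of the chosen cells lay in few of them. Scrublet, a program that scores how much a barcode looks like a doublet of 2 cells, put 38 of the 536 chosen cells, 7.09%, and 408 of the comparison cells, 6.32%, among the 6.9% of highest score in AF75. These 38 cells had a median of 19130.5 UMIs and 4314.5 genes and held 43.0% of the mural marker UMIs of the chosen cells, with 54.6% of those of AREG. Without them the mural markers summed to 814 CPM in place of 1269.9, and AREG was at 205 CPM and its log2 ratio -4.00 in place of -3.02. The 4 markers, INHBB, SLC10A4 and VCAN, the only high genes looked at here, were lower in the 38 cells than in the other 498, as for SHAS2 with 273 against 477 CPM and PTGS2 with 14.8 against 84.2. The share of true doublets among them was not tested.

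**Figure D1:**
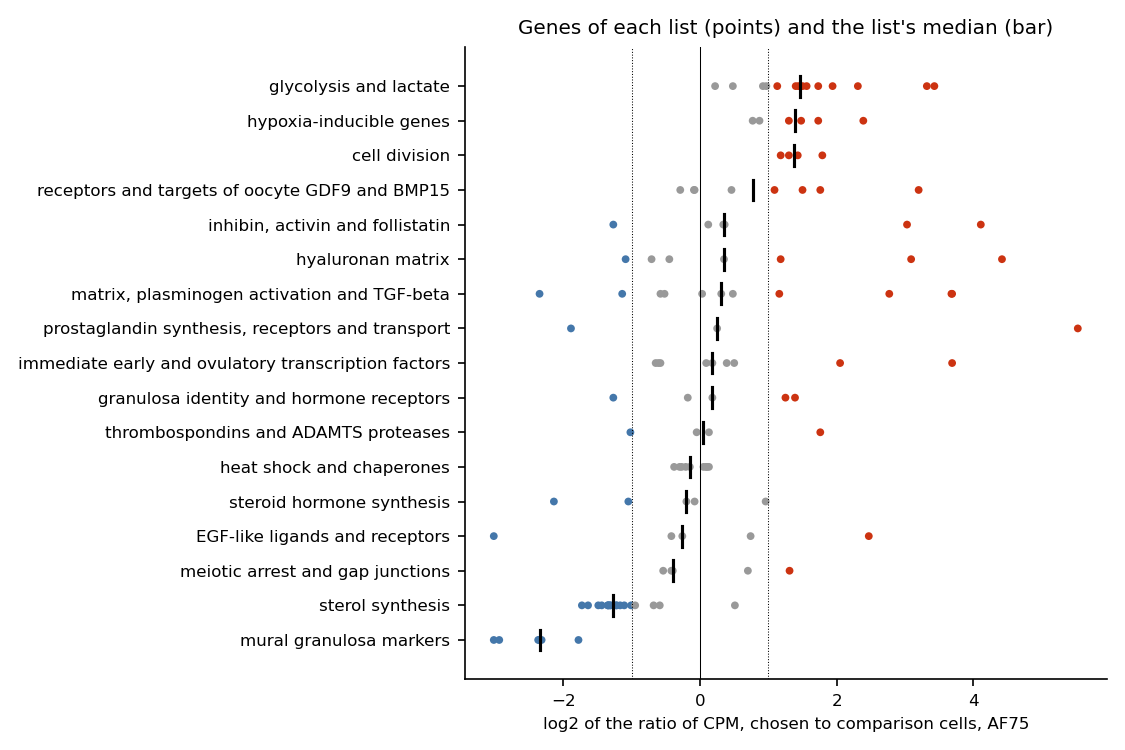
Log2 ratio of CPM, chosen to comparison cells of AF75, for each gene of the lists with at least 3 genes compared (points; red 2-fold or more higher, blue 2-fold or more lower, grey between), with the median of each list as a bar. Glycolysis, hypoxia-inducible and cell division genes lie to the right, with medians of 1.47, 1.39 and 1.37, and sterol synthesis and mural markers to the left, with medians of -1.27 and -2.35.

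INHA and INHBA, an inhibin and an activin gene, were among the most abundant of the chosen cells. Activin is a dimer of beta subunits, and inhibin pairs a beta subunit with the alpha subunit. INHBA, the beta A subunit, was at 7765 CPM in the chosen and 949 in the comparison cells, a ratio of 8.18 (8.09 to 8.28), and INHBB, the beta B subunit, at 389 and 22.6, a ratio of 17.2 (16.2 to 18.3). INHA, the alpha subunit, was at 9122 and 21927 CPM, a ratio of 0.416 (0.413 to 0.419). Both beta subunits were thus higher and the alpha subunit lower. FST, which encodes the activin-binding protein follistatin, differed little, at 158 and 146 CPM. In all, 6 of 9 listed genes were compared, 2 were 2-fold or more higher and 1 lower, with a median log2 ratio of 0.35.

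Of the EGF-like ligands and receptors, 5 of 9 were compared, with 1 higher, 1 lower and a median of -0.26. EREG, epiregulin, was at 105 CPM in the chosen and 18.9 in the comparison cells, a ratio of 5.55 (5.06 to 6.07), the reverse of AREG. EGFR, the receptor of both, was at 51.3 and 30.7 CPM. In the prostaglandin list 3 of 11 genes were compared, with PTGS2 higher and PTGES lower and a median of 0.25. PTGES, a synthase that acts after PTGS2 in making prostaglandin E2, was at 61.7 CPM in the chosen and 229 in the comparison cells. PLA2G4A, the phospholipase that frees arachidonic acid upstream of PTGS2, was at 22.8 and 3.95 CPM, with its mean below the minimum. PTGES3, another prostaglandin E synthase and the most abundant of the list in the chosen cells, was at 147 and 124 CPM, so the genes of this pathway did not share a direction.

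Receptors and targets of the oocyte factors GDF9 and BMP15 had 8 of 13 genes compared, of which 4 were 2-fold or more higher (BMPR1B, ID1, ID3 and SMAD2) and 0 lower, with a median of 0.78. BMPR1B, a type I receptor of bone morphogenetic proteins, was at 1806 CPM in the chosen and 639 in the comparison cells. ID3, an inhibitor of DNA binding that these signals induce, was at 92 and 10 CPM, a ratio of 9.19 (8.25 to 10.2). The type II receptor BMPR2 was not higher, at 41.2 and 50.3 CPM. The higher genes thus included a receptor, a signal carrier and targets.

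Glycolysis genes were higher together. Of 23 listed genes 14 were compared, 10 were 2-fold or more higher and 0 lower, with a median log2 ratio of 1.47. HK2, the hexokinase of the first step, was at 61.3 CPM in the chosen and 5.69 in the comparison cells, a ratio of 10.8 (9.39 to 12.4). LDHA, which turns pyruvate into lactate, was at 671 and 136 CPM, a ratio of 4.95 (4.78 to 5.13). SLC16A3, the carrier that exports lactate, was at 232 and 23.3 CPM, a ratio of 9.96 (9.30 to 10.7). These 3 genes thus had larger ratios than the other 11 compared, among which GAPDH stood at 3443 and 2476 CPM and GPI at 208 and 179. Of 10 hypoxia-inducible genes 6 were compared, 4 were higher (HIF1A, VEGFA, BNIP3 and ADM) and 0 lower, with a median of 1.39. VEGFA, the growth factor of blood vessels, was at 98.1 and 18.7 CPM. Amino acid supply had 2 of 10 genes compared, neither past 2-fold, with a median of 0.65.

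Sterol synthesis went the other way. Of 19 listed genes 18 were compared, 14 were 2-fold or more lower in the chosen cells and 0 higher, with a median of -1.27. EBP, a sterol isomerase, was at 59.6 CPM in the chosen and 167 in the comparison cells, a ratio of 0.356 (0.322 to 0.394). SC5D, a sterol desaturase, was at 16.6 and 45.1 CPM. HSD17B7 alone stood on the high side, at 554 and 389 CPM; its product also reduces estrone to estradiol. Of the steroid hormone list 5 of 10 genes were compared, with 0 higher, 2 lower and a median of -0.20. STAR, which carries cholesterol into mitochondria, was at 19.3 and 84.7 CPM and SCARB1, a lipoprotein receptor, at 730 and 1515, while CYP11A1, which makes pregnenolone, was at 1626 and 1723. Most genes of the sterol list were thus on the low side, while CYP11A1 was nearly level.

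Matrix, plasminogen activation and TGF-beta genes were divided: 11 of 18 were compared, 4 were higher, 2 lower, and the median was 0.31. CTGF, a matrix protein induced by TGF-beta, was at 862 CPM in the chosen and 67.4 in the comparison cells, and TIMP3, a metalloprotease inhibitor bound to matrix, at 85.0 and 6.60. PLAT, the tissue plasminogen activator, was at 118 and 17.3 CPM. TIMP1, the most abundant of the list, was lower, at 5139 and 11359 CPM. The 2 inhibitors of metalloproteases thus differed in opposite directions. Of the thrombospondins and ADAMTS proteases 4 of 12 were compared without THBS1, with ADAMTS4 higher, THBS3 lower and a median of 0.04. ADAMTS1, which splits versican, was at 285 and 261 CPM.

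Among immediate early and ovulatory transcription factors 9 of 16 were compared, 2 were higher (NR4A1 and EGR1) and 0 lower, with a median of 0.18. NR4A1, an orphan nuclear receptor induced within hours by gonadotropins, was at 69.1 CPM in the chosen and 5.36 in the comparison cells, and EGR1 at 205 and 49.5. PGR, the progesterone receptor that ovulation requires, was at 265 and 233 CPM. Of the meiotic arrest and gap junction genes 5 of 11 were compared, with GJC1 higher, 0 lower and a median of -0.40, and GJA1, which encodes the connexin that joins cumulus cells, was at 1332 and 820.2 CPM. The heat shock list, which often moves with handling of cells, had 9 of 10 genes compared and 0 past 2-fold either way, with a median of -0.15.

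In the granulosa list, GATA4, a transcription factor of granulosa cells, was at 132 CPM in the chosen and 55.2 in the comparison cells. FSHR, the receptor of follicle-stimulating hormone and a gene below the minimum that is named after its values were seen, was at 12.6 CPM in the chosen and 0.317 in the comparison cells, a ratio of 39.7 (25 to 65.4). It had a UMI in 13.1% and 0.356% of these cells, and in 6.73% and 0.171% at 5000 UMIs a cell. LHCGR, the receptor of luteinizing hormone, was at 7.27 and 9.28 CPM. The chosen cells thus held more FSHR and no more LHCGR. Of the defining granulosa markers AMH was at 0 in both groups and FOXL2 was not named in the gene list.

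Cell division genes stood higher in sum. Of 15 cell division genes 4 were compared (TOP2A, CENPF, UBE2C and MCM6), all 4 were 2-fold or more higher, and the median was 1.37. Genes of this level pass the minimum more easily when high in the chosen cells, so this count supports nothing by itself. With thresholds per 10000 UMIs the median was below 2-fold, as given in the closing section. Summed over the list, the chosen cells had 350.0 CPM and the comparison cells 149. PCNA, the most abundant of the list in the comparison cells but below the minimum, was lower, at 13.4 and 25.9 CPM. At least 10 UMIs over the list were found in 66 chosen cells, 12.3% (9.65% to 15.4%), and in 3% of the comparison cells. With such cells left out of each group, a step chosen after seeing the data, 280 genes were 2-fold or more higher and 394 lower, close to the 282 and 406 with them.

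Markers of other cell types were at or near 0 in the chosen cells, with few exceptions. The 10 immune markers summed to 6.38 CPM in the chosen and 14.3 in the comparison cells, with CD14 the most abundant at 4.15 and 10.2 CPM, and PTPRC, AIF1, LAPTM5, CD3E and CSF1R at 0 in the chosen cells. The 10 theca and stromal markers summed to 119 and 366 CPM, nearly all of it INSL3 at 109 and 357, with CYP17A1, DCN and LUM at 0. The endothelial list, 6 of 7 genes matched, summed to 58.5 and 48.0 CPM, with VWF and CDH5 at 0. There KDR, the main receptor of VEGFA, was higher, at 45.2 against 4.58 CPM, and EGFL7 lower, at 9.94 against 37.6. Oocyte markers summed to 5.19 and 5.43 CPM, all of it GDF9 in the chosen cells, with the other 7 matched genes at 0. Red blood cell markers summed to 1.63 and 2.76 CPM, all of it HBB in the chosen cells, and both matched surface epithelial markers were at 0. Chosen cells thus showed no set of markers of another lineage, and the part of INSL3, KDR and EGFL7 in the results was not tested.

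A second comparison took 558 comparison cells of AF75 chosen by at least 30 UMIs of VCAN, at a median of 11716 UMIs. The comparison sets the chosen cells beside others high in versican, but the groups were not matched on it. VCAN stood at 4323 CPM in the VCAN-high cells and 7949 in the chosen ones, and its part in the differences was not tested. Of 5364 genes, 145 or 2.70% were 2-fold or more higher in the chosen than in the VCAN-high cells and 210 or 3.91% lower. The largest ratios were those of F3, SLC10A4, RGS4, ARPP21, INHBB, ID3, ALPK2 and ENSSSCG00000024568, from 11 down to 4.57, and the smallest those of RAB3B, LRRC17, EMP1, AREG, PTHLH, SCG2, STRIP2 and LRP4, from 0.201 to 0.278. F3 was at 171 CPM in the chosen and 15.4 in the VCAN-high cells, a ratio of 11 (9.12 to 13.7). SHAS2 was at 455 and 107 CPM, a ratio of 4.26 (3.93 to 4.62), and PTGS2 at 76.6 and 4.13, a ratio of 18.5 (12.8 to 28.0). The VCAN-high cells thus lay between the comparison and the chosen cells for SHAS2 and PTGS2. They lay between them for the mural list as well, which summed to 3433 CPM there. Sterol synthesis did not follow this order, with sums of 1873 CPM in the chosen, 3846 in the VCAN-high and 3552 in the comparison cells.

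In AF75, 191 chosen cells lay just inside, with fewer than 40 UMIs of TNFAIP6 or fewer than 16 of THBS1, and 159 cells just outside, with at least 15 and 6 but not both at the threshold. TNFAIP6 was at 4645 CPM inside and 3700.1 outside, and THBS1 at 1885 and 1386, which the way these cells were chosen sets. SHAS2 was at 382 and 292 CPM, ARPP21 at 259.8 and 222, and PTGS2 at 49.8 and 20.9. AREG was at 566 and 554 CPM. Of these last 4 genes only PTGS2 differed by 2-fold or more between cells just inside and just outside. F3 was at 68.9 CPM inside and 71.9 outside, SLC10A4 at 84.1 and 57.6 and, named after its values were seen, SOX9 at 42.2 and 18.4, against 171, 119.9 and 72.2 in all chosen cells.

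Among the chosen cells, 3 parts of 179, 179 and 178 cells were set by TNFAIP6 per 10000 UMIs, with median depths of 13489, 11374 and 10409.5 UMIs from the low to the high part. Of 2830 genes with a mean of at least 50 CPM over the parts, 19 were 2-fold or more higher in the high than in the low part and 37 lower. The genes named here were chosen after their values were seen. F3 was at 64.5, 183 and 298 CPM from the low to the high part, a ratio of 4.61 (3.88 to 5.51) between the ends, and SOX9, a transcription factor, at 35.1, 78.0 and 115. INHBB was at 238, 399.6 and 576 CPM, and PTGS2 at 43.9, 89.8 and 105. SHAS2 varied less, at 398, 462 and 522 CPM, and ALPK2 had no order, at 128, 158 and 156. SQLE, an enzyme of sterol synthesis, was at 162, 129.7 and 49.6 CPM, and IDI1 at 319, 197 and 108. Over the lists, 17 of 18 sterol genes and 7 of 7 mural markers decreased from part to part and 6 of 6 hypoxia-inducible genes increased, where 32.2% of 5390 genes decreased in this order and 17.7% increased. The lists were set with earlier results of these data known, so these counts are a description. The 3 parts differ in depth, and the part of depth and of the 38 chosen cells of highest doublet score in these orders was not tested.

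PENK, the gene of the opioid precursor proenkephalin and a gene chosen after its values were seen, had very unequal counts among the chosen cells. It reached 492 UMIs in a chosen cell, had a median of 5.00 and was at 0 in 79 cells. The 205 cells with at least 20 UMIs had 8744 CPM of PENK and the other 331 had 273. Of 2826 genes, only 3 were 2-fold or more higher in the former (TM4SF1, CALCRL and TGM3) and 0 lower. SHAS2 was at 441 and 464 CPM and VCAN at 8085 and 7857 in these groups. Below 2-fold, INHBB was at 309.7 and 443 CPM, a ratio of 0.698 (0.643 to 0.758), and PTGS2 at 61.2 and 87.0, a ratio of 0.704 (0.582 to 0.848).

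In AF75 cells with 1 of the genes high were intermediate. The 562 cells at the threshold for TNFAIP6 and not for THBS1 had 208 CPM of SHAS2, 163 of ARPP21 and 16.9 of PTGS2, and the 507 cells at the threshold for THBS1 and not for TNFAIP6 had 238, 149 and 18.5. For the former, 131 of 5411 genes, 2.42%, were 2-fold or more higher than in the comparison cells and 54, 0.998%, lower. For the latter, 157 of 5445 genes, 2.88%, were higher and 107, 1.97%, lower. Both kinds stood between the chosen and the comparison cells for these markers.

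Cells of AF76 with 1 of the genes high were described in the same way. The 295 TNFAIP6 cells had 3.77 CPM of SHAS2 and 0 UMIs of ALPK2 and PTGS2, and the comparison cells of AF76 had 2.23 CPM of SHAS2. Past 2-fold they differed from these comparison cells in 2 of 5300 genes upward, 0.0377%, and 8 downward, 0.151%. The 2 were MNDA, at 106 against 50.9 CPM, and CENPW, both chosen after their values were seen. Both were also higher in the chosen cells of AF75, MNDA at 82.8 against 35.4 CPM and CENPW at 233 against 27.5. TNFAIP6 itself, which chose them, was at 3953 against 19.7 CPM. The 159 THBS1 cells had 412 of 5740 genes 2-fold or more higher, 7.18%, and 63 lower, 1.10%, at a median depth of 10010.0 UMIs against 13962 in the comparison cells of AF76. Chosen after their values were seen, their leading genes were RGS4, at 142 against 5.66 CPM, the hemoglobin gene HBB, at 706 against 37.7, the interleukin receptor gene IL1R1, the secreted protein gene CCDC80, the hyaluronan-degrading CEMIP, at 513 against 31.3, and MITF. Of the 12 genes with the largest ratios in the chosen cells of AF75, 8 were at least 2-fold higher in these THBS1 cells too, with intervals above 1. Their ratios were 25 for RGS4, 14.4 for APOD, 8.84 for PRSS12, 8.68 for F3, 6.94 for CLMP, 6.58 for INHBB, 5.17 for ARPP21 (from 5 UMIs) and 4.38 for NAV2. Unlike the 5740 genes, the 12 were not held to a mean of 20 CPM in AF76. Below it were ARPP21, at 2.72 against 0.527 CPM, and PRSS12, at 32.1 against 3.63. SHAS2 had a ratio of 1.47 (0.533 to 3.25), SLC10A4 1.25 (0.149 to 4.67), ENSSSCG00000024568 1.35 (0.713 to 2.33) and ALPK2 2.67 (0.0641 to 16.8). The intervals of these 4 all reach below 1. This overlap was counted after the values of both groups were seen. In all, 5208 genes were compared in both follicles. Of these, 71 were 2-fold or more higher in both comparisons, 25.2% of the 282 for the chosen cells and 17.2% of the 412 for the THBS1 cells. Another 44 were lower in both, 10.8% of 406 and 69.8% of 63. These 4 totals cover all genes compared in each follicle, where 5.23% were higher and 7.53% lower in the chosen cells and 7.18% and 1.10% in the THBS1 cells. Of the 282 genes 3 were 2-fold or more lower in the THBS1 cells, and of the 406 genes 12 were 2-fold or more higher. CEMIP was at 0.593 CPM in the chosen cells, with 4 UMIs in all.

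**Figure D2:**
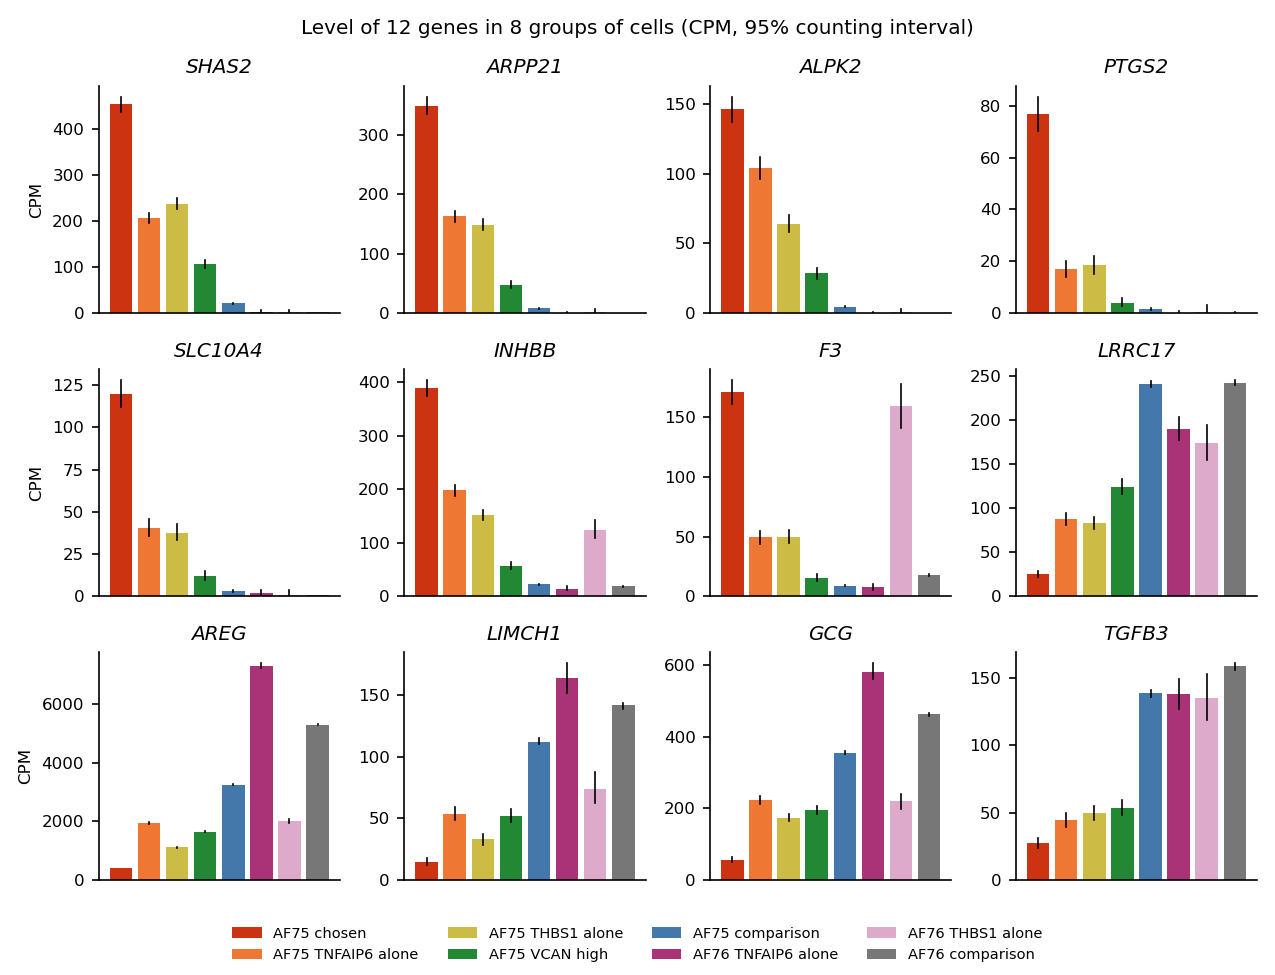
CPM of 12 genes in 8 groups of cells, with 95% counting intervals as lines: the chosen cells of AF75, cells of either follicle with only TNFAIP6 or only THBS1 at its threshold, the VCAN-high cells of AF75, and the comparison cells of each follicle. SHAS2, ARPP21, ALPK2, PTGS2 and SLC10A4 stand highest in the chosen cells and near 0 in the groups of AF76, while F3 reaches 159 CPM in the THBS1 cells of AF76.

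Promoters are shown of TNFAIP6 and THBS1, which chose the cells, and of PTGS2, the marker with the largest ratio, which had UMIs in a minority of them. The 250 bases before the start annotated by RefSeq on Sscrofa11.1 were searched on both strands for TGACG (the core of the cyclic AMP response element), TGANTCA (the AP-1 element), ACGTG (a form of the core of the hypoxia response element) and TATAAA, and matches are in capitals. Another form of the hypoxia core, GCGTG, was not searched for. All 3 genes lie on the minus strand, and the sequences are written 5′ to 3′ toward the gene: chr15:881353-881602 for TNFAIP6, chr1:131746099-131746348 for THBS1 and chr9:127858867-127859116 for PTGS2.
TNFAIP6: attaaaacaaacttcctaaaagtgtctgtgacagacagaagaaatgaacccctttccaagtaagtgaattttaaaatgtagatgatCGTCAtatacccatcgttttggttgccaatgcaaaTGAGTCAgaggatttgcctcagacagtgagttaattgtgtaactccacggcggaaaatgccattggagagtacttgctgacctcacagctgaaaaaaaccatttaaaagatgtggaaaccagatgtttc
THBS1: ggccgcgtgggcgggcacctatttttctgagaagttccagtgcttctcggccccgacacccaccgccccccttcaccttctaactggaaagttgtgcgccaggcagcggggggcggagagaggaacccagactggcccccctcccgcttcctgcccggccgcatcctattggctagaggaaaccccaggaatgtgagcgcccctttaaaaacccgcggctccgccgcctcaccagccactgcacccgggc
PTGS2: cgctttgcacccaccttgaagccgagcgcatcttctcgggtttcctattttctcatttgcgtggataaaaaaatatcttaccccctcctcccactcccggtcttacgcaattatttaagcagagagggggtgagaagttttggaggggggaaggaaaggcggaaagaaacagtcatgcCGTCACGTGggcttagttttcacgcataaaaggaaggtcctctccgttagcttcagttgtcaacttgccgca
The window of TNFAIP6 held 1 match to TGACG, on the opposite strand, and 1 to TGANTCA. That of PTGS2 held 1 match to TGACG on the opposite strand that overlaps 2 matches to ACGTG, 1 on each strand, and that of THBS1 held none of the 4. Of 19556 protein-coding promoters of this length, 19.6% held TGACG, 5.27% TGANTCA, 18.7% ACGTG and 9.77% TATAAA. A match describes letters in the window and is no evidence of a site in use.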

How the data were processed

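The authors deposited, for each barcode called by CellRanger 6.0.2, the raw count of UMIs per Ensembl gene of Sscrofa11.1, with no normalization. Names AF75 and AF76 come from the deposited names, since the labels only number the follicles 1 and 2. Of 22342 genes 7356 were listed by identifier alone, and 1042 of these took a symbol from a reference table. Doublets were not removed. Of 273 listed genes in 24 lists 255 were matched, 18 were not. The cells and the lists were chosen with earlier results of these data known.

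CPM of a gene is its UMIs in all cells of a group together, over all UMIs of those cells, with exact Poisson 95% intervals; ratios have exact conditional intervals and shares Clopper-Pearson intervals. A count of 0 is read against a limit of 3 counts. No test was made, as each follicle is 1 library. Genes with a mean of at least 20 CPM over both groups were compared. Named genes were the markers, the 12 largest and 12 smallest ratios at a mean of at least 50 CPM, the 8 largest and 8 smallest against VCAN-high cells, and members of the lists; a rule for ratios between chosen cells of the follicles was void, as AF76 had 0. Alternatives are named in the closing section. Python 3.11.15, numpy 2.4.6, scipy 1.17.1, pandas 2.3.3, scanpy 1.11.5 and matplotlib 3.10.9 were used, and the ratio was tested on simulated data.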

Additional observations from a re-analysis of the deposited data

Results flagged for a closer look

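Cells with TNFAIP6 at its threshold and THBS1 below it differed from the comparison cells of their own follicle in opposite directions in AF75 and AF76 for some named genes. The 29 genes looked at were the markers and those of largest or smallest ratio, with TNFAIP6 and THBS1 left out. In the 2 kinds of cells with 1 gene high, 11 of them had ratios whose intervals lay on opposite sides of 1. These were picked after their values were seen. Higher in AF75 and lower in AF76 in the TNFAIP6 cells were RGS4 (ratios of 16.7 and 0.549), F3 (5.38 and 0.424), APOD (11.9 and 0.193), CLMP (7.18 and 0.541) and ID3 (5.89 and 0.525). The TNFAIP6 cells of AF76 held few UMIs of them: 14 of RGS4, 35 of F3, 5 of APOD, 14 of CLMP and 70 of ID3. There the intervals were 0.298 to 0.929 for RGS4 and 0.294 to 0.916 for CLMP. Lower in AF75 and higher in AF76 were AREG (0.595 and 1.38), LIMCH1 (0.477 and 1.15), GCG (0.625 and 1.26), HSPB3 (0.505 and 1.26) and LRP4 (0.571 and 1.14). In the THBS1 cells EMP1 had ratios of 0.628 and 1.19. The difference between the follicles was not tested, and with 1 library each it cannot be told apart from a difference between libraries.

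Barcodes outside the limits were not used, except in alternatives with wider limits. Yet 49 of the 4927 such barcodes of AF75 reached both thresholds: 30 had fewer than 2000 genes, 16 more than 5000, and 9 a mitochondrial share of 7% or more, some for more than 1 of these reasons. Summed, they had 349 CPM of SHAS2 and 290.1 of ARPP21, below the 455 and 349 of the chosen cells, with intervals of 307 to 395 against 439 to 471 and of 252 to 332 against 335 to 364, and 1023 of AREG against 401. Their depth had a median of 5683.0 UMIs, an upper quartile of 28626 and a maximum of 64079. The deepest barcodes thus weigh most in these sums, which do not describe each of the 49. In AF76, 2 of 7705 barcodes outside the limits reached both thresholds.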

How the results depend on the processing

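With 1 pig, 1 library per follicle and cells chosen by counts of the same libraries, no value here has a replicate. Depth limits genes of low CPM in the smaller groups, where their counts are few. Free RNA was not removed. No paired analysis was possible, as both follicles came from 1 pig and each is 1 library.

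The share of chosen cells in AF75, 5.73%, was 4.94% at 500 to 6000 genes, 7.42% at 15 and 6 UMIs, 2.86% at 50 and 20 UMIs and 4.93% with thresholds per 10000 UMIs; in AF76 it was 0 to 0.0155%. At a mean of at least 5 CPM, which admits more genes, 471 genes were 2-fold or more higher and 766 lower than in comparison cells, and 275 and 446 than in VCAN-high cells. With no minimum but 1 UMI in each group these were 1526, 1563, 861 and 1183. At 50 and 20 UMIs, which leaves fewer cells, 327 genes were lower than in VCAN-high cells and 8 higher in the high than in the low part by TNFAIP6; with thresholds per 10000 UMIs 22 were lower between these parts. The cause of these last 3 was not tested.

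The other 69 numbers of genes past 2-fold were within 1.5 times of the reported number. All 595 values of 47 ratios kept their sign and stayed past 2-fold. They cover the markers and the genes of largest and smallest ratio to comparison or VCAN-high cells. Genes named only as members of a list, or only after their values were seen, were not rerun one by one. The 47 ratios include those of TNFAIP6 and THBS1, which the way the cells were chosen sets. Most of the others were picked as the largest or smallest ratios, so this tally is a description and no check. Of the values, 195 lay outside the counting interval of the reported ratio, 124 further from 0 and 71 nearer to it. Against all other cells within the limits, which include those in between, log2 ratios fell by up to 2.77. This largest fall was that of THBS1, which chose the cells together with TNFAIP6. SHAS2, ARPP21, ALPK2 and PTGS2 fell less, with their values given where these markers are described. The 78 values of the 6 list medians of at least 0.5 on either side with at least 3 genes compared kept their sign, lists with fewer genes compared were not run, and that of cell division was 0.93 with thresholds per 10000 UMIs in place of 1.37; the median of the thrombospondin list, 0.04, was -0.06, -0.01 and -0.07 with cells thinned to 5000 UMIs, with CPM averaged over cells and with library size without mitochondrial and ribosomal protein genes. Besides the settings above, a mitochondrial limit of 10%, comparison cells of like depth, ratios divided by their median, and removal of the 6.9% highest Scrublet scores were tried. The alternative without dividing cells was chosen after seeing the data.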
